A study of Mus musculus with 16 samples.

Results

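The insulin-like growth factor (IGF) system was described here through 10 genes: the ligands Igf1 and Igf2, the receptors Igf1r and Igf2r, and the binding proteins Igfbp2, Igfbp3, Igfbp4, Igfbp5, Igfbp6 and Igfbp7. They were chosen by symbol, as all probe sets whose only gene symbol in the platform annotation is one of these names, which gave 23 of 22626 probe sets and 10 of 12393 genes. A probe set is the group of short probes with which an Affymetrix array reads one transcript. Values are array signals on a log2 scale, so a difference of 1 is a change of 2-fold.

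The mouse samples profiled were 4 melanocyte arrays, 6 iMet melanoma arrays and 6 iHRAS* melanoma arrays. The iMet model carries Tyr-rtTA, Tet-Met and Ink4a/Arf-/-, and the iHRAS* model carries Tyr-rtTA, Tet-HRASV12G and Ink4a/Arf-/-. In both models the tyrosinase promoter (Tyr) drives a tetracycline-controlled transactivator, so the oncogene is meant to be switched on in pigment cells, and both lack the Ink4a/Arf tumour suppressor locus. The labels give no genotype for the melanocytes, so the transgenes, the Ink4a/Arf deletion and the tumour state cannot be told apart in a comparison with them. Strain, age and inducer treatment are not given in the sources used here. The sample labels speak of melanoma cells taken from the mice and the design text of RNA from cutaneous melanomas. Nothing in the labels says that arrays of a group came from different animals, so p-values measure the spread between these samples.

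Met, the engineered gene of the iMet model, was 2.53 ± 0.35 (log2, SE) higher in iMet than in iHRAS* tumours, with no overlap (limma, adjusted p = 0.000624). Markers of other cell types differed between the groups. The mean log2 signal of the 12 fibroblast markers lay between 8.0 and 10.66 on the melanocyte arrays, 10.78 and 11.41 on the iMet arrays and 10.72 and 12.24 on the iHRAS* arrays. The 12 macrophage markers had means of 4.14 to 4.72, 10.62 to 11.34 and 8.94 to 10.86 in the same order, and the 11 endothelial markers 3.89 to 4.98, 7.27 to 9.16 and 6.72 to 7.87. Below a signal of 6.21, called the dim level here (the 40th percentile of all probe sets), lay 7 macrophage and 8 endothelial markers on every melanocyte array. The 8 measured melanocyte lineage markers had means of 4.78 to 5.94, 5.21 to 5.88 and 5.94 to 7.81. Of them Mitf, Tyr, Tyrp1, Dct and Kit were below the dim level on every melanocyte array, and Pax3, Tyr, Tyrp1, Dct and Pmel on every iMet array. Sox10, Pax3 and Pmel were above it on all 4 melanocyte arrays, and Mitf on all 6 iMet arrays. The means of the 11 measured keratinocyte markers ran from 6.43 to 9.17, 4.6 to 9.19 and 8.62 to 10.78 on the melanocyte, iMet and iHRAS* arrays. These markers were mixed: against melanocytes 3 were called higher and 6 lower in iMet, and 4 higher and 0 lower in iHRAS* tumours. Krt5 and Krt14 averaged 12.57 and 12.73 on the melanocyte arrays. Krt1, Cdh1 and Epcam were below the dim level on every melanocyte array. The 7 measured Schwann cell markers had means of 6.75 to 8.19, 3.46 to 4.6 and 6.98 to 8.37 on the melanocyte, iMet and iHRAS* arrays. The 5 measured adipocyte markers had means of 4.16 to 4.90, 5.17 to 9.99 and 4.64 to 6.39, and the 7 skeletal muscle markers 4.10 to 5.17, 5.0 to 9.37 and 4.13 to 8.23. Fewer cells of a type and less RNA per cell cannot be told apart in such samples.

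The melanocyte arrays fell into 2 pairs: arrays 1 and 3 correlated at 0.949 and arrays 2 and 4 at 0.943 over all 12393 genes, against 0.906 to 0.930 across the pairs. The fibroblast marker mean was 9.93 and 10.66 on arrays 1 and 3 and 8.51 and 8.0 on arrays 2 and 4. The spike-in control bioB read 7.39 to 8.12 on the iHRAS* arrays, 8.38 to 8.92 on the iMet and 8.41 to 8.91 on the melanocyte arrays. On iHRAS* arrays 5 and 6 Xist, the RNA of the inactive X chromosome, read 6.60 and 6.33, against 10.92 to 13.07 elsewhere. Eif2s3y, a gene of the Y chromosome, read 6.4032 and 7.1994 on these arrays and at most 1.3248 elsewhere. By both sex-linked genes arrays 5 and 6 read as male and all other arrays as female, so the iHRAS* group is mixed in these sex markers. Without those arrays 4 members were called between the tumour models by limma, as Igf1 was lost (-1.17 in place of -1.30, adjusted p = 0.145). Over all genes 697 were higher and 606 lower in that fit, in place of 905 and 782. For iHRAS* minus melanocytes 5 members were called, where 1301 genes were higher and 1480 lower, in place of 1565 and 1839.

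IGF1 and IGF2 are small secreted hormones related to insulin. Both bind the IGF1 receptor, a tyrosine kinase whose adaptor proteins pass the signal to phosphoinositide 3-kinase (PI3K), AKT and the TOR kinase, and to the RAS pathway. The IGF2 receptor takes up IGF2 for breakdown in lysosomes and also carries mannose 6-phosphate tagged enzymes. The binding proteins hold IGFs in the extracellular fluid, where they can store them, keep them from the receptor or release them when proteases cut the binding protein, and several also act without IGF. In skin, fibroblasts are a known source of IGF ligands and pigment cells respond to them.

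In iMet against iHRAS* tumours, 9 members were bright enough to be tested, of which 1 was higher and 4 were lower (limma, adjusted p under 0.05). Of the 8058 genes tested, 11.2% were higher and 9.7% were lower. The higher member was Igfbp6 and the lower ones were Igf1, Igfbp3, Igfbp4 and Igfbp5. Against melanocytes all 10 members were tested. In iMet tumours 3 were higher (Igfbp3, Igfbp4, Igfbp6) and 2 lower (Igf2, Igfbp2), where 16.4% of 8651 genes were higher and 18.7% lower. In iHRAS* tumours 4 were higher (Igf1, Igfbp3, Igfbp4, Igfbp6) and 1 was lower (Igfbp2), where 18.1% of genes were higher and 21.3% lower. The 2 comparisons with melanocytes share the same 4 control arrays.

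The median difference of the tested members was -0.80 in iMet minus iHRAS*, -0.01 in iMet minus melanocytes and 0.85 in iHRAS* minus melanocytes, beside 0.03, -0.08 and -0.09 over all genes tested. The median size of the difference regardless of sign was 1.01, 1.19 and 1.64 for the members and 0.28, 0.40 and 0.45 for all genes. Scaling changes the direction split of all genes: 53.6% of the genes called between the tumour models were higher in iMet after quantile normalization and 80.2% on the deposited scale. For iMet minus melanocytes the share was 46.6%, with 55.9% on the deposited scale and 33.7% with each array centred on its median. For iHRAS* minus melanocytes it was 46.0%, with 35.6% on the deposited scale and 34.2% after centring.

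**Figure D1:**
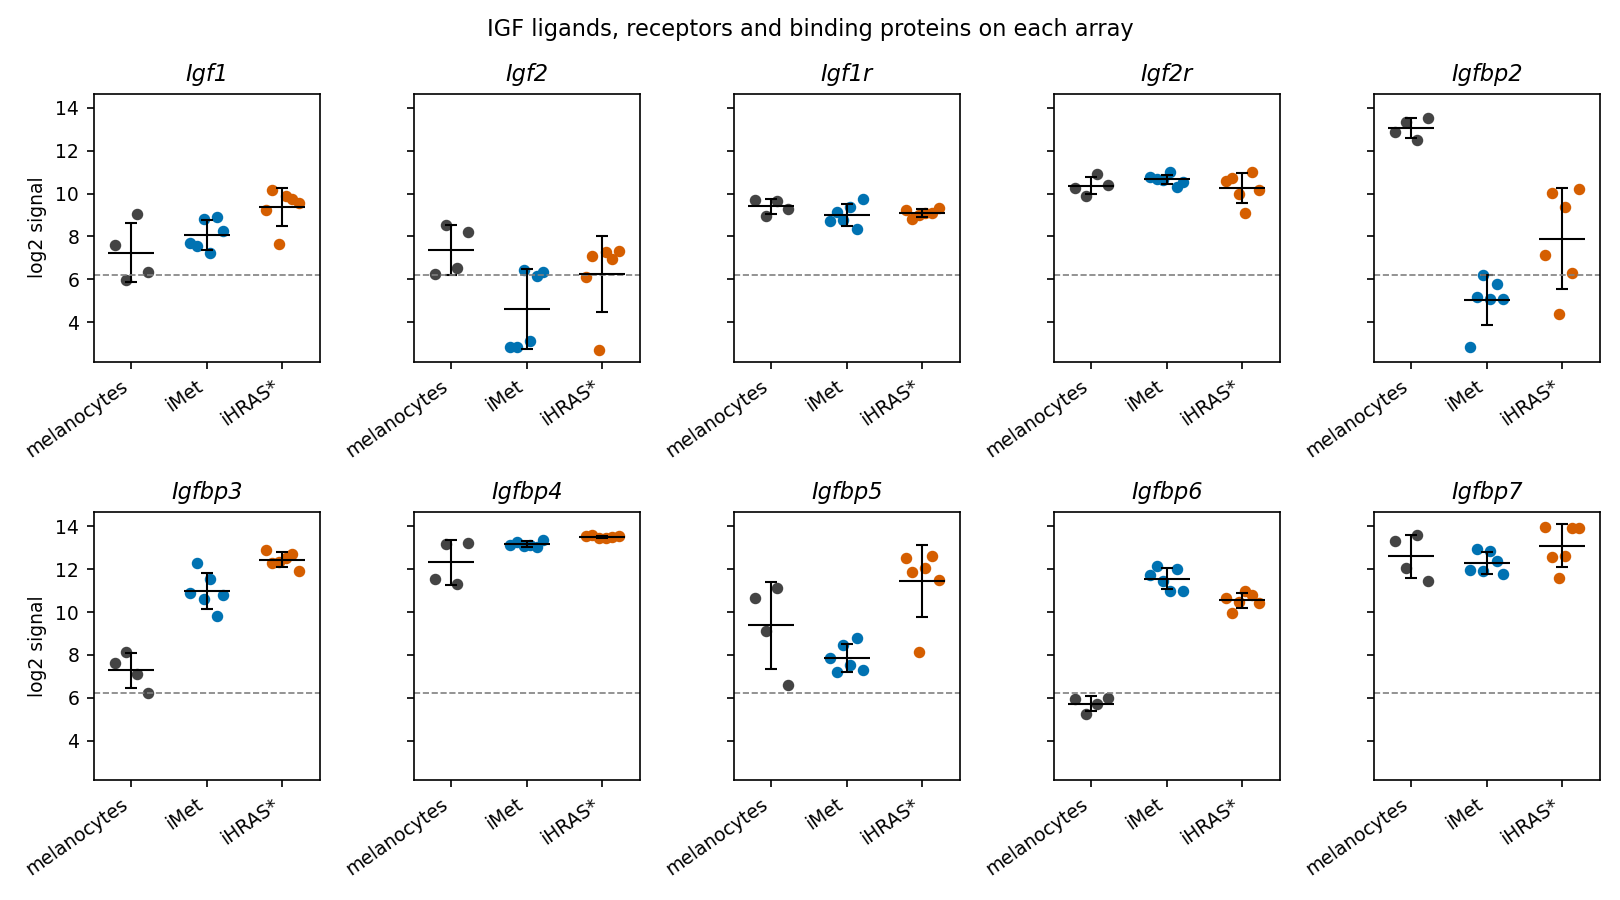
Log2 signal (y axis) of the 10 members on each array, 1 dot an array, by group (x axis), with the group mean and SD as a bar and the dim level of 6.21 as a dashed line. Igfbp2 is above 12.5 on all melanocyte arrays and at or below 6.21 on all iMet arrays, and Igfbp6 is below 6.00 on all melanocyte arrays and above 9.9 on all tumour arrays.

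Of the ligands, Igf1, the main IGF of growing and adult tissue, read 7.61, 5.98, 9.05 and 6.34 on melanocyte arrays 1 to 4. Its lowest, median and highest values were 7.24, 7.97 and 8.89 in iMet tumours and 7.66, 9.64 and 10.18 in iHRAS* tumours. Of the 6 iHRAS* arrays, 5 lay above every iMet array and every melanocyte array, and array 3 lay among the iMet values. The difference was -1.30 ± 0.42 (SE) for iMet minus iHRAS* (adjusted p = 0.0452), 2.14 ± 0.58 for iHRAS* minus melanocytes (adjusted p = 0.00959) and 0.83 ± 0.58 for iMet minus melanocytes (adjusted p = 0.282). The first was no longer called in 16 of 23 alternative settings and was -1.65 without iHRAS* array 3 (adjusted p = 0.00433). The difference of iHRAS* from melanocytes was 1.05 (adjusted p = 0.239) without melanocyte arrays 2 and 4, which had the lowest Igf1 and the lowest fibroblast marker means, and 1.95 (adjusted p = 0.0526) with the replicate number as a block.

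Neither of the other 2 Igf1 probe sets was called in any comparison. For iMet minus iHRAS* they gave -1.10 ± 0.38 (adjusted p = 0.0578 over all probe sets) and -0.88 ± 0.32 (adjusted p = 0.0706), the same sign as the brightest one.

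Igf2, a fetal growth factor expressed from the paternal allele, read 6.25, 8.55, 6.52 and 8.21 on the melanocyte arrays. The iMet values were 2.84, 4.65 and 6.45 (lowest, median, highest), with 2 of 6 arrays above the dim level, and the iHRAS* values 2.72, 7.01 and 7.33, with 4 of 6 above it. Melanocyte arrays 2 and 4 lay above all tumour arrays, while arrays 1 and 3 lay within their range. The difference of iMet from melanocytes was -2.75 ± 1.01 (adjusted p = 0.0462). It shrank to -1.11 when values under the dim level were set to it, and the call was lost in 10 of 20 alternatives and the sign turned in 1. The losses include leaving out iMet array 1, 2 or 4 or any 1 melanocyte array. Igf2 differed by -1.61 ± 0.95 between iMet and iHRAS* (adjusted p = 0.248) and by -1.14 ± 1.01 between iHRAS* and melanocytes (adjusted p = 0.390), neither called. The other Igf2 probe set was below the dim level on all 16 arrays, at 0.97 to 3.97, and was not tested.

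Neither receptor was called by its brighter probe set. Igf1r, the signalling receptor, read 9.70, 8.97, 9.66 and 9.27 on the melanocyte arrays, 8.32, 8.95 and 9.73 in iMet and 8.82, 9.09 and 9.33 in iHRAS* tumours. All 3 groups overlapped. The differences were -0.09 ± 0.21 for iMet minus iHRAS* (adjusted p = 0.788), -0.40 ± 0.23 for iMet minus melanocytes (adjusted p = 0.196) and -0.31 ± 0.23 for iHRAS* minus melanocytes (adjusted p = 0.312). Its second probe set was below the dim level on every array and was not tested.

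Igf2r, the clearance receptor, read 10.28, 9.91, 10.89 and 10.41 on the melanocyte arrays by its brighter probe set, 10.33, 10.66 and 10.99 in iMet and 9.08, 10.38 and 11.00 in iHRAS* tumours. The groups overlapped, and no difference was called (0.40 ± 0.27, 0.28 ± 0.30 and -0.12 ± 0.30 for iMet minus iHRAS*, iMet minus melanocytes and iHRAS* minus melanocytes). The dimmer Igf2r probe set behaved otherwise. It read 8.11 to 8.60 on the melanocyte arrays, 8.62 to 9.01 in iMet and 8.68 to 9.10 in iHRAS* tumours, so that every tumour array lay above every melanocyte array. It rose by 0.53 ± 0.12 in iMet (adjusted p = 0.00471) and 0.62 ± 0.12 in iHRAS* tumours (adjusted p = 0.00147). The sign of the brighter probe set was the same in iMet and the opposite in iHRAS* tumours.

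Among the binding proteins, Igfbp2 fell in both tumour models, and Igfbp3 and Igfbp6 rose in both. Igfbp2 and Igfbp5 are neighbours on chromosome 1 in the RefSeq annotation of GRCm38.p6: Igfbp2 lies on the plus strand at chr1:72824480-72852474 and Igfbp5 on the minus strand at chr1:72858065-72874865, with 5590 bases between their 3′ ends. Igfbp6 lies at chr15:102144186-102149512 on the plus strand and Igfbp3 at chr11:7206086-7215498 on the minus strand.

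The 250 bases upstream of the start are shown for the 3 members that moved the furthest from melanocytes, from RefSeq (GRCm38.p6), 5′ to 3′ along the gene. The windows are chr1:72824230-72824479, chr15:102143936-102144185 and chr11:7213924-7214173, and the last lies inside the annotated span of Igfbp3. Capitals mark matches on either strand to TATAAA, the core promoter box, GGGCGG (a GC box), CACGTG (an E box) and TGANTCA (an AP-1 site), which 12.4%, 32.7%, 6.02% and 6.75% of 32851 such windows hold.
Igfbp2: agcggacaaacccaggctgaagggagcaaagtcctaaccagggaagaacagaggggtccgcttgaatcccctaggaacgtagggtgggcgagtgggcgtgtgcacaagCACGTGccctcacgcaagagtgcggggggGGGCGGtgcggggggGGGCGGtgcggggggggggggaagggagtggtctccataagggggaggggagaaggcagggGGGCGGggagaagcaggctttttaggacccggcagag
Igfbp6: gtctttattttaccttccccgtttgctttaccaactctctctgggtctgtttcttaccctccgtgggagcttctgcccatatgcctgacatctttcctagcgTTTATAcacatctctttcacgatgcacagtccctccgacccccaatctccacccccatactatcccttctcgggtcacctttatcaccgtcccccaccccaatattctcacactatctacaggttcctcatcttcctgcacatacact
Igfbp3: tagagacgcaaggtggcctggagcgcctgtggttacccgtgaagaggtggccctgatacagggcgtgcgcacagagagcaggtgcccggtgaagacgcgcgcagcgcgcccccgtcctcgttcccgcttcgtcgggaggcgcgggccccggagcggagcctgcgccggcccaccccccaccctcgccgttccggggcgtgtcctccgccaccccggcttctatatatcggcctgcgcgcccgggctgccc
The Igfbp2 window held 3 GC boxes, which start 113, 98 and 37 bases before the gene's start, and 1 E box, 142 bases before it. Igfbp6 held 1 core promoter box match on the reverse strand, 148 bases before the start, and the Igfbp3 window held none of these letters. Their GC content was 67.2%, 49.6% and 73.2%, beside a median of 52.4% over all windows. These matches describe the letters only.

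Igfbp2, a binding protein abundant in fetal tissue that also binds integrins, was among the brightest members on the melanocyte arrays, at 12.88, 13.34, 12.51 and 13.53. In iMet tumours it read 2.84, 5.12 and 6.21 (lowest, median, highest), and no iMet array exceeded the dim level. In iHRAS* tumours it read 4.37, 8.24 and 10.21, with 5 of 6 arrays above that level. Every melanocyte array lay above every tumour array, and the iHRAS* arrays were widely spread, with array 3 among the iMet values. Igfbp2 fell by 8.04 ± 0.98 in iMet (264-fold, adjusted p = 2.51e-05) and by 5.17 ± 0.98 in iHRAS* tumours (35.9-fold, adjusted p = 0.000924). With signals under the dim level set to it, the differences were -6.85 and -4.86.

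In the direct comparison of the tumour models Igfbp2 did not pass the filter on dim genes. The difference of means was -2.88, or -1.99 with signals under the dim level set to it, the groups overlapped, and a two-sided exact permutation test over the 12 arrays gave an unadjusted p = 0.0303. It was tested in 10 alternative fits and not called in 8 of them: on the deposited scale (adjusted p = 0.0527), with no filter (adjusted p = 0.0818) and without each iMet array in turn (adjusted p from 0.0612 to 0.110). It was called lower in iMet in the fit of all 16 arrays (adjusted p = 0.0316) and without iHRAS* array 3 (adjusted p = 0.00923), the one iHRAS* array under the dim level.

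Igfbp3, the main carrier of IGFs in blood and one that also acts on cells directly, read 7.61, 8.13, 7.12 and 6.24 on the melanocyte arrays. Its values were 9.83, 10.84 and 12.29 in iMet tumours and 11.91, 12.43 and 12.90 in iHRAS* tumours. Every tumour array lay above every melanocyte array, and iMet array 2 reached into the iHRAS* range. Igfbp3 rose by 3.72 ± 0.41 in iMet (13.1-fold, adjusted p = 1.03e-05) and by 5.16 ± 0.41 in iHRAS* tumours (35.8-fold, adjusted p = 4.98e-07). It was lower in iMet than in iHRAS* tumours by 1.45 ± 0.34 (adjusted p = 0.0107).

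Igfbp6, which binds IGF2 in preference to IGF1, was below the dim level on all melanocyte arrays, at 5.96, 5.25, 5.70 and 5.99. It read 10.99, 11.59 and 12.14 in iMet tumours and 9.96, 10.55 and 10.97 in iHRAS* tumours. The 3 groups did not overlap: every iMet array lay above every iHRAS* array and both above the melanocytes. Igfbp6 rose by 5.82 ± 0.25 in iMet (56.6-fold, adjusted p = 4.08e-10) and by 4.82 ± 0.25 in iHRAS* tumours (28.2-fold, adjusted p = 4.86e-09), or by 5.34 and 4.33 with the melanocyte values set to the dim level. It was 1.01 ± 0.23 higher in iMet than in iHRAS* tumours (2.01-fold, adjusted p = 0.00915).

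Of the 15 member differences called, these 2 of Igfbp6 from melanocytes were the only ones kept in every alternative fit. With the means of the fibroblast, keratinocyte and endothelial markers as covariates, the Igfbp6 differences were lowest at 5.27 in iMet and 4.16 in iHRAS* over all alternatives, while those of Igfbp3 fell to 0.63 (adjusted p = 0.855) and 2.65 (adjusted p = 0.162). Other differences grew there while the call was lost: Igfbp2 to -8.79 in iMet (adjusted p = 0.202) and -7.15 in iHRAS* (adjusted p = 0.183), and, between the models, Igfbp3 to -2.01 (adjusted p = 0.0631) and Igfbp6 to 1.11 (adjusted p = 0.168). The macrophage marker mean, which was higher in both tumour models as given above, was not among the covariates, and its part in the result was not tested.

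**Figure D2:**
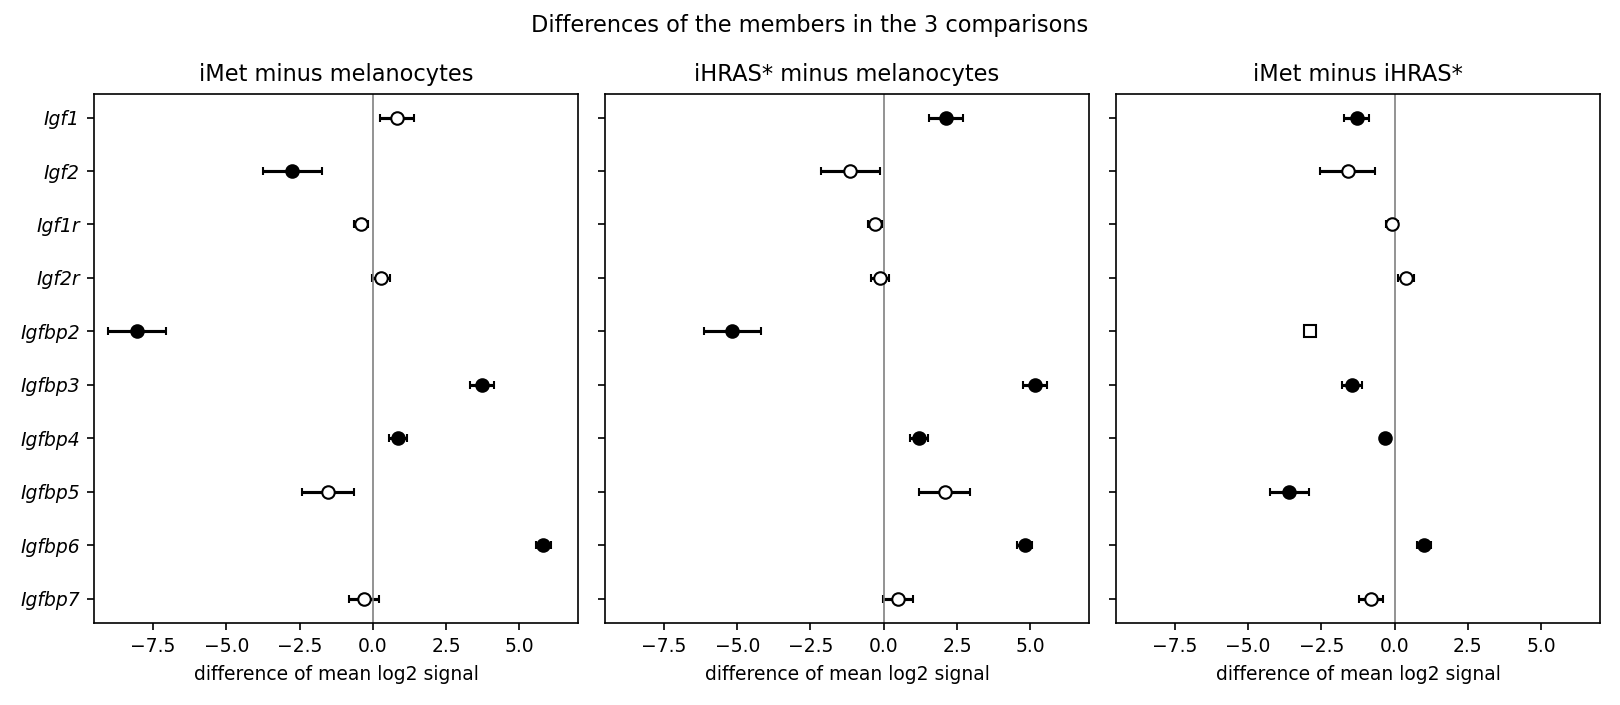
Difference of group means (x axis, log2) for each member (y axis) in the 3 comparisons, with the standard error of the limma fit as a bar. Filled circles passed an adjusted p under 0.05, open circles did not, and the open square (Igfbp2, -2.88) was not tested. Igfbp2 lies furthest to the left and Igfbp6 and Igfbp3 furthest to the right in both comparisons with melanocytes.

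Igfbp4, which in most settings keeps IGFs from their receptor until the protease PAPPA cuts it, split the melanocyte arrays. Its brightest probe set read 11.56, 13.19, 11.28 and 13.22 on arrays 1 to 4, 13.04, 13.14 and 13.37 in iMet and 13.46, 13.51 and 13.58 in iHRAS* tumours. Melanocyte arrays 1 and 3 lay far below all others, arrays 2 and 4 lay within the iMet range, and the iHRAS* arrays lay above all iMet arrays. The tumour readings sit within 1 log2 unit of the highest value of any array, 13.97. Igfbp4 was 0.34 ± 0.08 lower in iMet than in iHRAS* tumours (adjusted p = 0.0140), which was lost with the replicate block (adjusted p = 0.0592) and in the fit of all 16 arrays (adjusted p = 0.412). It was 0.86 ± 0.31 higher in iMet (adjusted p = 0.0418) and 1.20 ± 0.31 higher in iHRAS* tumours than in melanocytes (adjusted p = 0.00680). Without melanocyte arrays 1 and 3 these were -0.03 (adjusted p = 0.871) and 0.31 (adjusted p = 0.0556), and without array 1 or array 3 alone the iMet difference was 0.61 and 0.52, neither called. Leaving out any 1 iMet array also ended the iMet call (0.82 to 0.89).

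All 6 Igfbp4 probe sets showed melanocyte arrays 1 and 3 low. In iMet 5 of them were called lower than in iHRAS* tumours, by 0.34 to 0.69, and the remaining one gave -0.95 ± 0.33 (adjusted p = 0.0597). Against melanocytes all 6 were called higher in iHRAS*, by 1.20 to 2.32, and 2 in iMet.

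Igfbp5, a matrix-bound binding protein of skin, bone and muscle, read 10.67, 9.12, 11.11 and 6.60 on the melanocyte arrays. Its values were 7.18, 7.69 and 8.79 in iMet tumours and 8.16, 11.95 and 12.60 in iHRAS* tumours. Array 3 was the one iHRAS* array within the iMet range. The melanocyte arrays ran from below the lowest to above the highest iMet array, arrays 1 and 3 high and array 4 low, and all lay below 5 of the 6 iHRAS* arrays. Igfbp5 was 3.60 ± 0.66 lower in iMet than in iHRAS* tumours (12.1-fold, adjusted p = 0.00291), and 4.25 lower without iHRAS* array 3. Neither difference from melanocytes was called, at -1.52 ± 0.88 for iMet (adjusted p = 0.195) and 2.08 ± 0.88 for iHRAS* (adjusted p = 0.0735). The first was called without melanocyte array 4 (-2.44, adjusted p = 0.0331). The second passed at 2.73 with iHRAS* array 3 left out (adjusted p = 0.00708), and at 2.65 with melanocyte array 3 left out (adjusted p = 0.0370).

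The other Igfbp5 probe set separated the tumour models with no overlap, at 6.84 to 7.59 in iMet and 8.32 to 10.62 in iHRAS*, a difference of -2.02 ± 0.35 (adjusted p = 0.00231). By that probe set iHRAS* tumours were 1.33 ± 0.46 higher than melanocytes (adjusted p = 0.0338).

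Igfbp7, a related protein of blood vessels and stroma that binds IGFs weakly, was bright in all groups, at 13.31, 12.06, 13.57 and 11.47 on the melanocyte arrays, 11.76, 12.15 and 12.95 in iMet and 11.57, 13.28 and 13.97 in iHRAS* tumours. The groups overlapped, with iHRAS* arrays 1, 5 and 6 above the rest and melanocyte arrays 1 and 3 next. No difference was called: -0.80 ± 0.42 (adjusted p = 0.189) for iMet minus iHRAS*, -0.31 ± 0.51 (adjusted p = 0.662) for iMet minus melanocytes and 0.49 ± 0.51 (adjusted p = 0.464) for iHRAS* minus melanocytes. Without iHRAS* array 3 the first was -1.11 (adjusted p = 0.0391). With the marker means as covariates both differences from melanocytes were called lower, by 4.26 in iMet (adjusted p = 0.00828) and 3.47 in iHRAS* (adjusted p = 0.0101), the latter a change of sign. A dimmer Igfbp7 probe set was not called in any comparison. It gave -1.36 ± 0.48 for iMet minus iHRAS* (adjusted p = 0.0641 over all probe sets). The remaining Igfbp7 probe set was below the dim level on every array and was not tested.

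**Figure D3:**
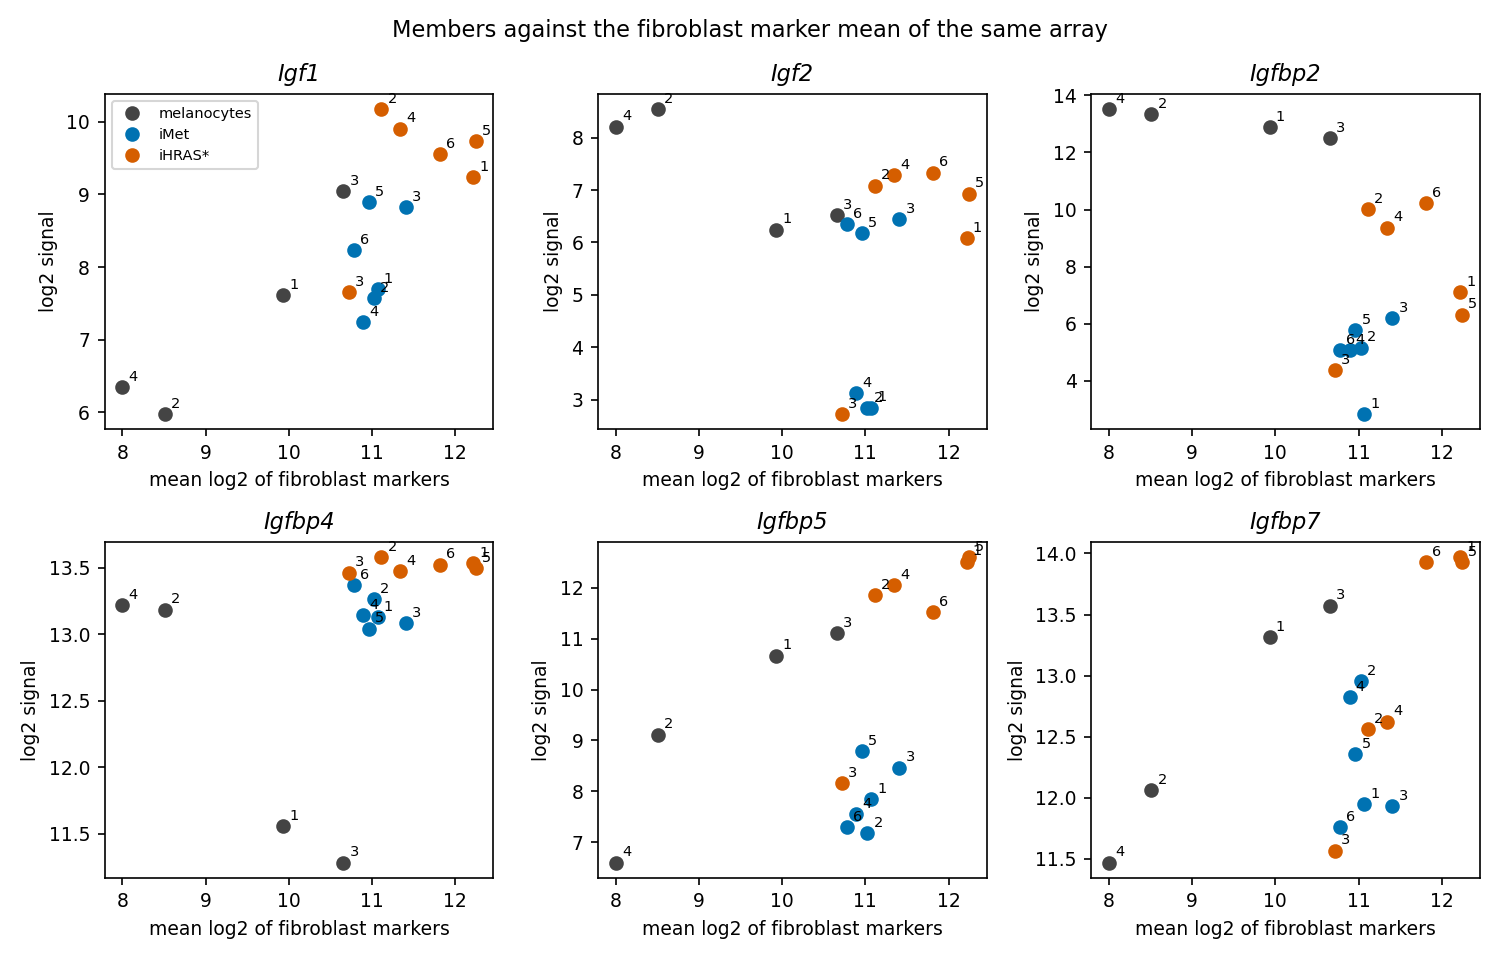
Log2 signal of 6 members (y axes) against the mean log2 signal of the fibroblast markers (x axes) on the same array, with the array number beside each dot and the groups in colour. Melanocyte arrays 1 and 3 (fibroblast means 9.93 and 10.66) have higher Igf1, Igfbp5 and Igfbp7 and lower Igfbp4 and Igf2 than arrays 2 and 4 (8.51 and 8.0).

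The 2 melanocyte pairs also differed in other markers. The keratinocyte marker mean was 7.28 and 6.43 on arrays 1 and 3 and 9.17 and 8.98 on arrays 2 and 4, and the Schwann cell marker mean 8.19 and 7.97 against 7.16 and 6.75. Igf1, Igf1r, Igfbp5 and Igfbp7 were higher, and Igf2, Igfbp2 and Igfbp4 lower, on both of arrays 1 and 3. That pair had more fibroblast and Schwann cell and less keratinocyte marker signal. The share of all genes that split the pairs in this way was not counted. The part of these markers in the members' values was not tested.

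By single probe sets, each tested as its own feature, 19 of the 23 passed the filter between the tumour models and 10 were called, 1 higher and 9 lower in iMet, beside 19.3% of all 13747 probe sets tested. Against melanocytes 20 passed. In iMet tumours 7 were called (5 higher, 2 lower) beside 32.5% of 14999 probe sets, and in iHRAS* tumours 12 (11 higher, 1 lower) beside 37.8%. Igfbp4 alone accounts for 6 of the 23 probe sets, so these counts are not of independent features.

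**Figure D4:**
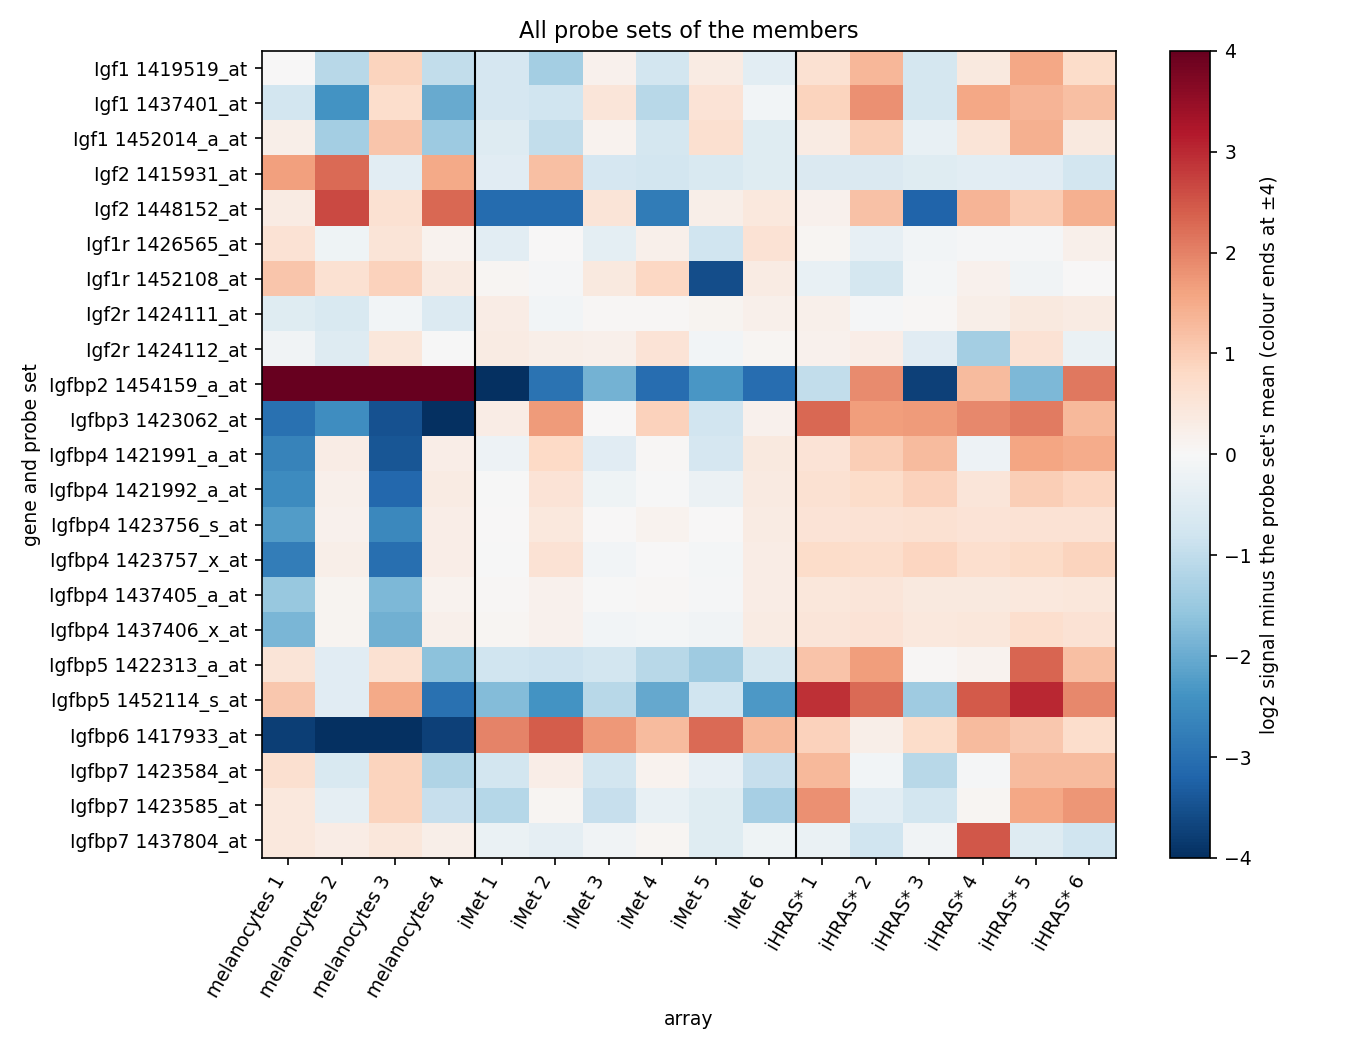
Each of the 23 probe sets (rows) on each of the 16 arrays (columns, groups divided by lines), as log2 signal minus that probe set's mean over the arrays, red above and blue below, with the colour ending at 4 either way. The 6 Igfbp4 rows are blue on melanocyte arrays 1 and 3, and the rows of Igfbp3 and Igfbp6 are blue on all 4 melanocyte arrays.

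The genes whose signal followed the 3 members of widest group range most closely were found by Pearson's r over the 16 arrays among the 8651 genes tested. For Igfbp2 they were Wnt4 (r = 0.946), Slc25a15 (0.924) and Atp6v0e2 (0.908), each highest in melanocytes. For Igfbp6 they were Plvap (0.986), a protein of endothelial cell openings, Ccr1 (0.979), a chemokine receptor of myeloid cells, and Fcgr3 (0.978), an antibody receptor of myeloid cells that is one of the macrophage markers above. For Igfbp3 they were Efhd2 (0.947), Fxyd5 (0.944) and Srgn (0.935). The melanocyte mean of each of these genes differed from both tumour means, so r can reflect the group means and is a description. The tumour models overlapped in Fcgr3, at 9.78 to 10.60 in iMet and 8.79 to 10.42 in iHRAS* tumours.

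Of 55 other genes of the pathway, listed by role, 46 had a probe set of their own. Between the tumour models 4 of 34 tested were higher in iMet and 3 lower, beside 11.2% and 9.7% of all genes. Against melanocytes 6 of 38 were higher and 11 lower in iMet, beside 16.4% and 18.7%, and 5 were higher and 10 lower in iHRAS* tumours, beside 18.1% and 21.3%. Their median difference was -0.09, -0.26 and -0.13 in this order, beside 0.03, -0.08 and -0.09 for all genes.

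Among the proteins that set IGF availability, Htra1, a secreted serine protease that can cut binding proteins, read 12.72 to 13.11 on the melanocyte arrays, 12.72 to 13.09 in iMet and 10.15 to 10.74 in iHRAS* tumours. It was 2.34 ± 0.12 higher in iMet than in iHRAS* tumours (adjusted p = 3.68e-07) and 2.32 ± 0.13 lower in iHRAS* than in melanocytes (adjusted p = 8.48e-09), with no overlap in either. Adam12, a membrane protease whose human form can cut IGFBP3 and IGFBP5, was 1.91 ± 0.35 higher in iMet than in iHRAS* tumours (adjusted p = 0.00305). Adam9, a related membrane protease, was 0.76 ± 0.19 higher in iHRAS* tumours (adjusted p = 0.00524) and 0.63 ± 0.19 higher in iMet tumours (adjusted p = 0.0168) than in melanocytes. Both calls were lost without melanocyte arrays 2 and 4 (0.42, adjusted p = 0.126, and 0.29, adjusted p = 0.290) and with each array centred on its median (adjusted p = 0.0679 and 0.257). The iMet call was also lost on the deposited scale (adjusted p = 0.0510) and without melanocyte array 2 alone (adjusted p = 0.0706).

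Pappa, the protease that cuts Igfbp4, differed from melanocytes by -4.20 ± 0.83 in iMet (adjusted p = 0.00129), where no array exceeded the dim level, and by -2.55 ± 0.83 in iHRAS* tumours (adjusted p = 0.0238). The iHRAS* difference was -0.89 without melanocyte arrays 1 and 3 and was not called (adjusted p = 0.424), nor without array 1 (-2.20) or array 3 (-1.79) alone. Its inhibitors moved in opposite directions: Stc1 rose by 3.02 ± 0.70 in iMet (adjusted p = 0.00409) and 2.74 ± 0.70 in iHRAS* (adjusted p = 0.00673), and Stc2 fell by 2.28 ± 0.45 (adjusted p = 0.00129) and 1.69 ± 0.45 (adjusted p = 0.00814). Stc1 was above the dim level on 1 of the 4 melanocyte arrays, and with signals under that level set to it the differences were 1.97 and 1.69. Without melanocyte arrays 2 and 4 the Stc1 call in iHRAS* was lost (adjusted p = 0.0509), and without arrays 1 and 3 that of Stc2 (adjusted p = 0.123). None of the 3 measured genes of the insulin ligands and insulin receptors was bright enough to be tested.

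All 10 receptor adaptors were measured, and 9 were tested against melanocytes. None was higher in a tumour model, beside 16.4% of all genes in iMet and 18.1% in iHRAS* tumours. In iMet tumours 4 were lower, beside 18.7% of all genes, with the smallest p for Grb14, which binds the activated receptor and dampens it (-2.92 ± 0.53, adjusted p = 0.000739), Gab1, a docking protein (-1.45 ± 0.29, adjusted p = 0.00136) and Ptpn11, a phosphatase that aids RAS signalling (-0.76 ± 0.22, adjusted p = 0.0136). No iMet array was above the dim level for Grb14, and its difference was -1.77 with such signals set to that level. In iHRAS* tumours 2 were lower, beside 21.3% of all genes, Gab1 (-1.19 ± 0.29, adjusted p = 0.00459) and Ptpn11 (-0.75 ± 0.22, adjusted p = 0.0126). Without melanocyte arrays 2 and 4 the Ptpn11 calls in both models and that of Gab1 in iHRAS* were lost (adjusted p from 0.0695 to 0.0834), as were those of Ptpn11 without arrays 1 and 3. Between the tumour models 1 of 8 tested was lower in iMet, beside 9.7% of all genes. It was Grb10, another dampening adaptor (-1.61 ± 0.52, adjusted p = 0.0433). Most alternatives lost this call, leaving out iMet array 1, 3, 4, 5 or 6 or iHRAS* array 1, 4, 5 or 6 among them.

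In the PI3K, AKT and TOR list 16 of 17 measured genes were tested. Between the tumour models Pik3ca, a catalytic subunit of PI3K, was 0.50 ± 0.11 higher in iMet (adjusted p = 0.00692) and Foxo1, a transcription factor that AKT keeps out of the nucleus, 0.94 ± 0.21 lower (adjusted p = 0.00745). Against melanocytes 2 were higher and 3 lower in iMet, beside 16.4% and 18.7% of all genes, led by Foxo1 (-1.30 ± 0.23, adjusted p = 0.000522), Foxo3 (1.12 ± 0.21, adjusted p = 0.000842) and Gsk3b (-0.87 ± 0.24, adjusted p = 0.0107). In iHRAS* tumours 1 was higher and 2 lower, beside 18.1% and 21.3%, Foxo3 (0.85 ± 0.21, adjusted p = 0.00496), Rheb (-0.72 ± 0.16, adjusted p = 0.00245) and Gsk3b (-0.75 ± 0.24, adjusted p = 0.0206). The Pik3ca call was lost in the fit of all 16 arrays (adjusted p = 0.0668), and those of Gsk3b without melanocyte arrays 2 and 4 and, in iHRAS*, without array 3 or 4 alone. With the mean of a gene's probe sets neither the Foxo3 calls nor that of Foxo1 between the models held.

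Among regulators linked to Igf2, the mRNA-binding protein Igf2bp1 fell by 4.00 ± 0.56 in iMet (adjusted p = 8.60e-05) and 3.24 ± 0.56 in iHRAS* tumours (adjusted p = 0.000449), and no tumour array exceeded the dim level. With signals under the dim level set to it, both differences were -0.65. Hmga2, a chromatin protein that supports Igf2 expression, rose by 2.82 ± 0.47 (adjusted p = 0.000398) and 2.74 ± 0.47 (adjusted p = 0.000489). Igf2bp3 fell by 2.48 ± 0.54 (adjusted p = 0.00277) and 1.98 ± 0.54 (adjusted p = 0.00998), the latter lost without melanocyte arrays 1 and 3 (adjusted p = 0.107). It too was below the dim level on all tumour arrays, and both differences were -0.73 with such signals set to that level. Igf2bp1 and Igf2bp3 passed the filter only through the 4 melanocyte arrays, where they were high. A call could therefore only be lower in the tumours, and the p-values of these genes add no support for the direction. Between the tumour models Dlk1, an imprinted gene of another locus, was 3.75 ± 0.81 lower in iMet (adjusted p = 0.00682) and Ctcf, the insulator protein of the Igf2 locus, 0.95 ± 0.29 higher (adjusted p = 0.0359). The Ctcf call was lost in 12 alternatives, among them leaving out iMet array 1, 2, 3, 4 or 6 or iHRAS* array 3, 4 or 6.

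**Figure D5:**
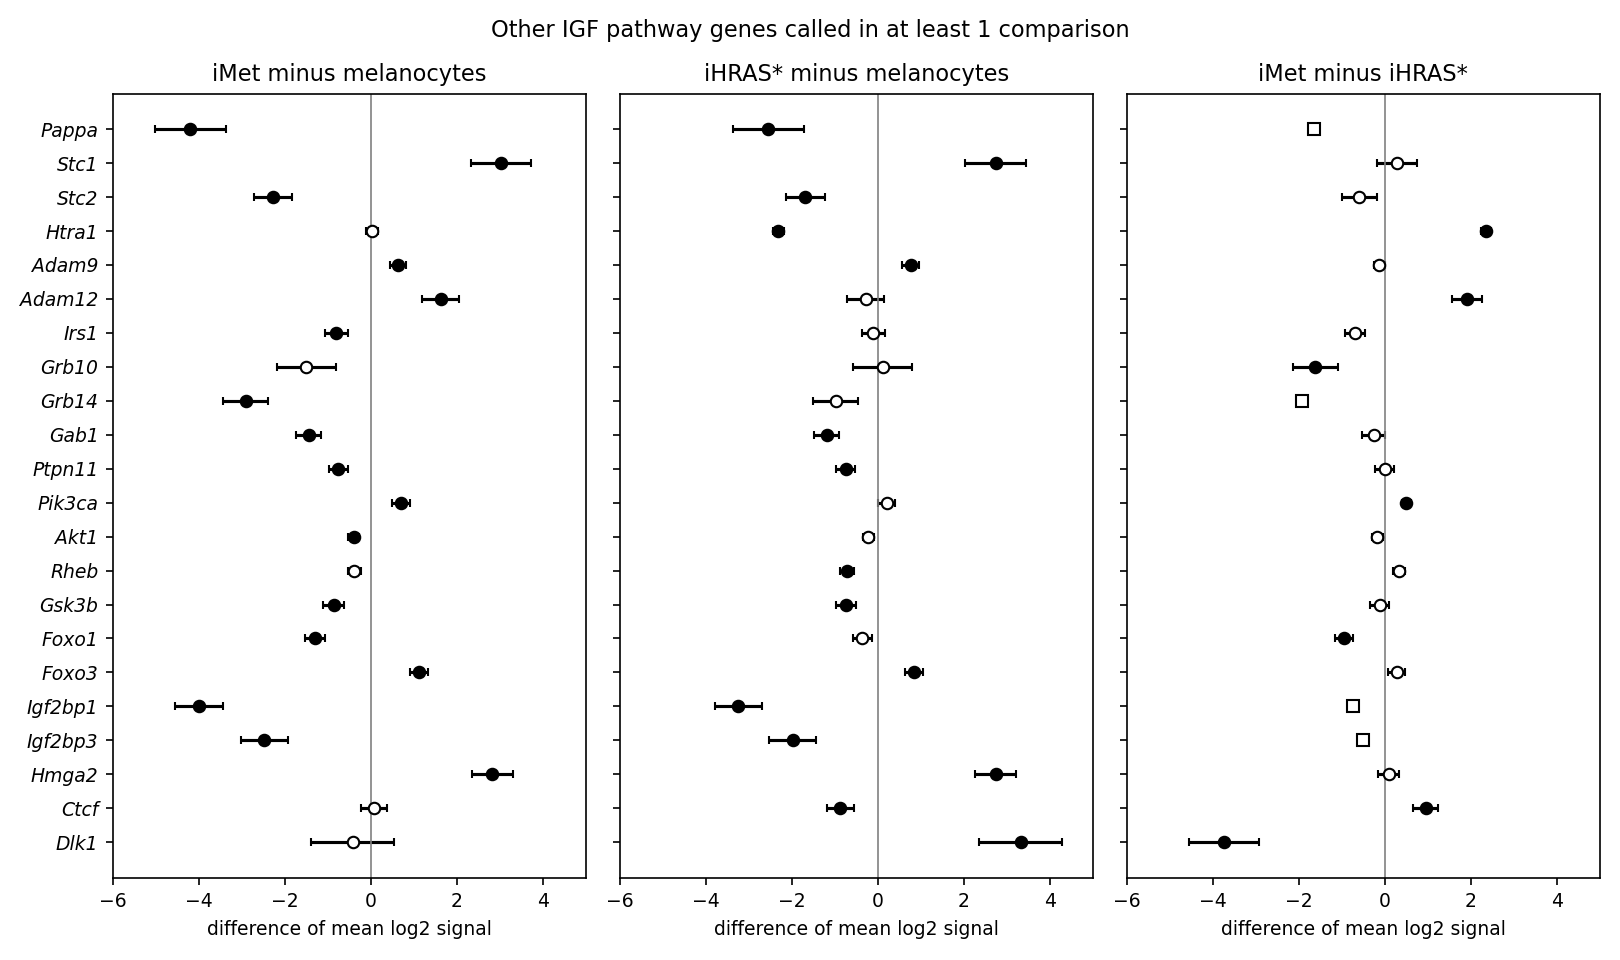
Difference of group means (x axis, log2, with the standard error) of the 22 other pathway genes called in at least 1 comparison (y axis), in the 3 comparisons. Filled circles passed an adjusted p under 0.05, open circles did not, and open squares were not tested. Htra1 stands at 2.34 in iMet minus iHRAS* and -2.32 in iHRAS* minus melanocytes.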

How the data were processed

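RNA from 16 samples had been read on Affymetrix M430A_2 arrays, per the labels' design text. The deposited table holds 1 column of values a sample for 22690 probe sets. The log2 unit of these deposited values was inferred from their range (-4.07 to 14.53), and the authors' summary and scaling of the probes are not stated. Column medians ran from 6.56 to 7.28. After 64 control probe sets were left out, the values were quantile normalized. Names came from the platform annotation: 20380 probe sets had 1 gene symbol, 691 several and 1555 none. A gene was read by its brightest probe set, and entered the test when above the 40th percentile of all signals (6.21) on at least the number of arrays in the smallest group of the fit.

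Differences were tested with limma 3.58.1 (lmFit and eBayes, R 4.3.3), the tumour models on their 12 arrays and the comparisons with melanocytes on all 16, two-sided, with Benjamini-Hochberg adjusted p-values over all genes tested and a threshold of 0.05. The code was tested on simulated data. A two-sided exact permutation test was used for a member under the filter. With 6 against 6 arrays the smallest p it can give is 0.00216, and with 6 against 4 it is 0.00476. Every probe set was also fitted as its own feature. The number of arrays limits the precision. Members and gene lists were chosen with earlier results of these data known. Named pathway genes were up to 3 called genes of smallest p per list and comparison, and a gene named for one comparison may be given in the others. Promoter windows came from RefSeq (GRCm38.p6). Alternatives changed the scaling, the filter, the use of probe sets, the arrays in the fit, the spread model, a replicate block and marker covariates, and left out arrays.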

Additional observations from a re-analysis of the deposited data

Results flagged for a closer look

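Of 30 sets of values (10 members in 3 groups), the groups of 4 or 6 arrays held 4 in which 1 array lay far from the others by Dixon's ratio, where chance alone flags about 1 in 20. In iHRAS* array 3, Igf1 read 7.66, while the next lowest iHRAS* array read 9.24. Igf2 on the same array read 2.72, with the next at 6.09, and Igfbp5 read 8.16, with the next at 11.52. This array had the lowest fibroblast marker mean of the iHRAS* tumours, 10.72, and the lowest deposited median of all arrays, 6.56. Without it, 7 members in place of 5 were called between the tumour models. Over all genes 984 were higher and 813 lower in that fit, in place of 905 and 782. In iMet array 1, Igfbp2 read 2.84, with the next at 5.07, all under the dim level. The part of these array properties in the values was not tested.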

How the results depend on the processing

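Between 22 and 23 alternatives were run for each comparison. The 2 differences of Igfbp6 from melanocytes kept their call and direction in all of them, and the other 13 called member differences lost the call in at least 1. With marker means as covariates, 0 members were called higher and 0 lower between the tumour models by limma, 1 higher and 1 lower for iMet minus melanocytes, and 1 higher and 1 lower for iHRAS* minus melanocytes. Over all genes that fit called only 119 higher and 163 lower, 33 and 31, and 62 and 57 in these comparisons, in place of 905 and 782, 1418 and 1622, and 1565 and 1839. On the deposited scale the first pair was 1795 and 442, with a median of all genes of 0.23 there, not 0.03, and -0.21, not -0.09, for iHRAS* minus melanocytes. Centring moved the median to -0.22 for iMet and -0.23 for iHRAS* minus melanocytes, from -0.08 and -0.09. Without melanocyte arrays 2 and 4, 1117 genes were lower in iHRAS*. Members lower in iMet than in melanocytes numbered 1, not 2, with values as deposited or no filter. Over all genes 1203 and 1608 were lower in these fits, in place of 1622. The number was also 1 with a 60th percentile filter or the mean of a gene's probe sets, where Igf2 was not tested. Over all genes 1294 and 1557 were lower there. When 1 array was left out the members lower ranged from 1 to 2, and all genes lower from 1233 to 1555.

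The replicate numbers showed no sign of pairing the samples. Same-numbered arrays of 2 groups deviated from their group means with correlations of only -0.104 to 0.0639. Arrays of different numbers were not compared, so a pairing is not excluded. With the replicate block, 2 members were lower in iMet than in iHRAS* tumours, and 3, 4 and 4 members were called in the 3 comparisons. Over all genes the block gave 621 higher and 565 lower, 1188 and 1213, and 1345 and 1487 in these comparisons. The main fits gave 905 and 782, 1418 and 1622, and 1565 and 1839.

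Signs changed as follows, and the cause was not tested. With covariates, Igf2 became 2.01 and Igf1r 0.067 for iMet minus iHRAS*, Igf2 became 1.21 and Igf2r -0.61 for iMet minus melanocytes, and Igfbp5 became -2.22 and Igfbp7 -3.47 for iHRAS* minus melanocytes. On the deposited scale Igf1r was 0.15 between the models, and over the fits without 1 array it ranged from -0.24 to 0.043. The mean of its probe sets turned Igf2r to 0.25 for iHRAS* minus melanocytes, which ranged from -0.27 to 0.12 without 1 array. Without melanocyte arrays 1 and 3 Igfbp4 was -0.030 and Igfbp7 0.53 in iMet, and Igf2r 0.094 in iHRAS*. Without arrays 2 and 4 Igf1 was -0.25 in iMet and Igfbp7 -0.35 in iHRAS*. Leaving out 1 array, Igfbp7 in iMet ranged from -0.69 to 0.015.

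Of 39 called differences of other pathway genes, 36 lost the call with covariates. The other 3 kept it in every alternative that tested the gene: both of Htra1 and that of Igf2bp1 in iHRAS*. Igf2bp1 passed the filter only through the melanocyte arrays. The fit with covariates called 2 pathway genes higher and 1 lower between the models, 0 in iMet and 2 lower in iHRAS* against melanocytes. With the mean of a gene's probe sets 1 was lower between the models, beside 584 over all genes in place of 782. Without melanocyte arrays 2 and 4, 3 were higher in each tumour model and 6 lower in iHRAS*. Over all genes 1086 in iMet and 1060 in iHRAS* were higher there, in place of 1418 and 1565. In iHRAS* 1117 were lower, in place of 1839. Without arrays 1 and 3, 5 pathway genes were lower in iHRAS*, beside 1582 over all genes. Dim signals limit Igfbp2 in iMet, Igfbp6 in melanocytes and Igf2 in the tumours, where the size of a difference rests on readings near the bottom of the scale.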

Other observations

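The antisense transcripts Igf1os and Igf2os and the binding protein relative Igfbpl1 each had a probe set of their own. None of them exceeded the dim level of 6.21 on any of the 16 arrays. The highest readings were 4.25 for Igf1os, 6.01 for Igf2os and 3.95 for Igfbpl1.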
